A study of Mus musculus with 3 samples.

Results

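The macrophages described here were 318 of the 5657 kept cells of a library from mandibular molars of mice at postnatal day 25, or 5.62% (5.04 to 6.25, exact Clopper-Pearson 95% interval, counting error only). They were chosen by values of the same library: at least 500 genes detected, at most 15% of counts from mitochondrial genes, at least 5 unique molecular identifiers (UMIs, one per captured RNA molecule) of C1qa and C1qb together and at least 1 UMI of Csf1r. The rule therefore fixed that C1qa, C1qb and Csf1r were high. Every other gene of these cells belongs to the same contrast, so all values are given as description, with no test.

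The study sorted fluorescent mesenchymal cells from molars and profiled them by droplet single-cell RNA sequencing in 3 libraries, with 1 library per group. The group that holds the macrophages was Col1a1-GFP Cxcl12-creER P25, with the genotype Col1a1-GFP; Cxcl12-creER; R26R(tdTomato/+). In it GFP is driven by a Col1a1 promoter, and tdTomato marks cells in which Cxcl12-driven creER had recombined the R26R allele, and their descendants. The other groups were Cxcl12-creER P6, with creER and R26R(tdTomato/+) but no Col1a1-GFP, and Cxcl12-GFP P6, which carries GFP at Cxcl12, both at postnatal day 6. All were gated for GFP or tdTomato, a gate meant for mesenchyme, so the share of macrophages is a share of what passed that gate and not of the tooth. Nothing in the labels says how many animals were pooled or when tamoxifen was given.

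Macrophages are phagocytes that depend on the receptor CSF1R, which binds the growth factors CSF1 and IL-34. Tissue-resident macrophages clear dying cells and debris, recycle the iron of engulfed red cells, present antigen on MHC class II and secrete chemokines that draw in other leukocytes. In teeth they are known from the dental pulp, the periodontal ligament and the surrounding bone, where they share precursors with the osteoclasts that resorb bone and roots.

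The library held 6693 barcodes and 99277096 UMIs. Of the barcodes 741 had under 500 genes and a further 295 were over the mitochondrial limit. The macrophages held 5363103 UMIs, with a median of 14873.5 per cell (lowest 1056, quartiles 10807 and 20646, highest 66566) and a median of 3694 genes. The same rule found 7 of 1131 kept cells (0.619%) in Cxcl12-creER P6 and 3 of 7517 (0.0399%) in Cxcl12-GFP P6. Their summed C1qa level was 4743 CPM in the 7 cells and 2242 CPM in the 3 cells, CPM being the UMIs of a gene scaled to the same total UMIs in each group. Depth, genotype, gate and age differ together between these libraries and cannot be told apart. Pairs of libraries shared 0, 1 and 5 cell barcodes.

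The defining markers were present. C1qa and C1qb, chains of the complement initiator C1q, reached 5530.4 CPM (5468 to 5594, exact Poisson interval) and 4385 CPM in macrophages, against 2.99 and 3.56 CPM in the rest of the library. C1qc, the remaining chain and not part of the rule, reached 3434 CPM in macrophages against 2.21 CPM in the rest, and had a UMI in 99.1% of macrophages. Csf1r averaged 1103 CPM in macrophages against 13.6 CPM in the rest. Cd68, a lysosomal glycoprotein, had 721 CPM in macrophages against 17.2 CPM in the rest, and Adgre1, which encodes the F4/80 antigen, had 549 CPM against 1.21 CPM. Both of these were found in nearly all macrophages, in 97.5% and 96.5% of cells. Among 3927 stromal cells, taken as a measure of free RNA, the shares with a UMI were 4.35% for C1qa, 3.44% for C1qc, 4.13% for Cd68 and 0.891% for Adgre1, at median depths of 14873.5 UMIs in macrophages and 16922 in stromal cells. The stromal cells were those with at least 50 UMIs of Col1a1 and Col1a2 together and few of C1q and neutrophil genes.

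**Figure D1:**
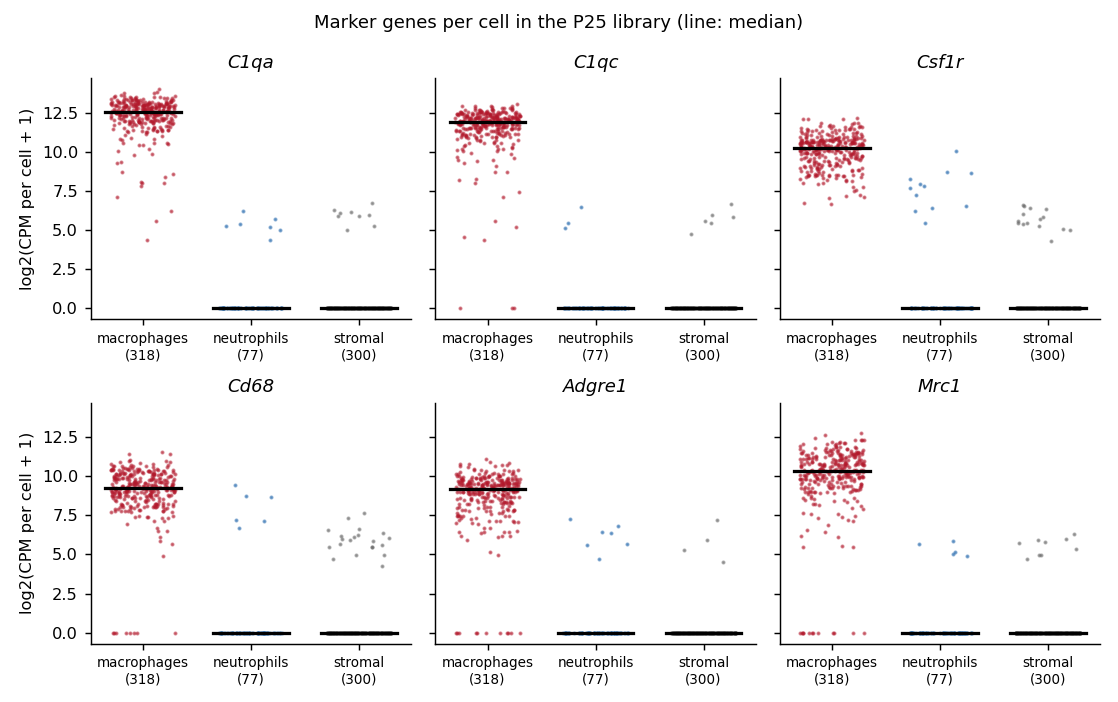
Each panel plots 1 marker, with each cell's level on the vertical axis as log2(CPM + 1) for 318 macrophages, 77 neutrophils and 300 stromal cells drawn at random from 3927; the black line is the group's median. C1qa, C1qc, Csf1r, Cd68, Adgre1 and Mrc1 are detected in over 96% of macrophages, while the medians of neutrophils and stromal cells are 0.

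The C1q genes lie side by side on mouse chromosome 4 (GRCm38), all on the minus strand. C1qa spans 136895917 to 136898803, C1qc 136889804 to 136893065 and C1qb 136880129 to 136886187, with gaps of 2.85 kb between C1qa and C1qc and 3.62 kb between C1qc and C1qb. The promoter windows of C1qb and C1qc, 250 bases before to 50 after the annotated start, are shown because these neighbours had nearly the same pattern over cell groups. Sequences are from RefSeq on GRCm38.p6, at chr4:136886151-136886450 and chr4:136892865-136893164, both read on the minus strand. Capitals mark AGGAAG or its reverse complement CTTCCT, the core bound by ETS factors such as PU.1, the product of Spi1.
C1qb: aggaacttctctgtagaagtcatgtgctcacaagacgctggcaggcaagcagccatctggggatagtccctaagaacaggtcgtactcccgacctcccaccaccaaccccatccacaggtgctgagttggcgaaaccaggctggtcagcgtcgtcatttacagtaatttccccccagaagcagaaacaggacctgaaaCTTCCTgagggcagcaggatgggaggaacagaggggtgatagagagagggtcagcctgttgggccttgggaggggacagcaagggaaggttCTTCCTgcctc
C1qc: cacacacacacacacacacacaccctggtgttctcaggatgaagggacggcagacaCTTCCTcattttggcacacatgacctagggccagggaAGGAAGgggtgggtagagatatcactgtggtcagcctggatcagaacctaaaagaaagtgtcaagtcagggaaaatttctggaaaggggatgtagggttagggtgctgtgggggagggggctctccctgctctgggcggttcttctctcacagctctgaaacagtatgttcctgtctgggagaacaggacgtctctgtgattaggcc
Each window held 2 matches. In C1qb both were on the opposite strand, the first 52 bases before the start and the other after it, and in C1qc they lay 194 and 157 bases before it. The motif was found on either strand in 35.4% of 32851 promoters of this length. Spi1 itself, the master regulator of myeloid cells, had 368 CPM in macrophages and 26.2 CPM in the rest.

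Near the thresholds of the rule the cells were mixed. Inside it, 6 macrophages had 5 to 9 C1q UMIs and 37 had 10 to 49, and the other 275 had 50 or more. The 37 cells had 1275 CPM of Ctsk and 902 CPM of Acp5, genes of osteoclasts, against 81.7 and 149 CPM in the 275. Of these 37 cells 2 carried 508 of the 516 Ctsk UMIs and 317 of the 365 Acp5 UMIs, and the other 35 had 24.8 CPM of Ctsk and 149 CPM of Acp5. Just outside, 53 cells had 1 to 4 C1q UMIs with Csf1r, and these had 16379 CPM of Col1a1, 3801 CPM of Ctsk and 3715 CPM of Acp5. A further 6 cells had 5 or more C1q UMIs but no Csf1r, with 23092 CPM of Col1a1. The highest C1q count outside the rule was 22 UMIs.

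Among genes with at least 20 CPM in macrophages or in the rest, 681 of 7102 (9.59%) were at least 4-fold higher in macrophages and 831 (11.7%) at least 4-fold lower, on log2 of CPM plus a pseudocount of 1. The median log2 ratio over all 7102 genes was 0.02. Beside C1q, the genes with the highest ratios included Ms4a7 (1589 CPM in macrophages, 2.01 CPM in the rest), the mannose receptor Mrc1 (1354 and 2.74 CPM), the fractalkine receptor Cx3cr1 (694 and 1.53 CPM) and the complement receptor C3ar1 (264 and 0.548 CPM). Fcrls, known from mouse microglia, had 527 CPM in macrophages and 0.537 CPM in the rest. Gpr34 and P2ry6, receptors of lysophospholipid and nucleotide, had 209 and 202 CPM in macrophages and under 1 CPM each in the rest. Cd4, best known from T cells, had 134 CPM in macrophages and 0.274 CPM in the rest, and 60.4% of macrophages had a UMI of it.

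The most abundant transcripts in macrophages were Tmsb4x, an actin-binding peptide, at 21919 CPM against 2507 CPM in the rest, and Apoe, the lipid carrier, at 20993 CPM against 711 CPM. The ferritin genes Ftl1 and Fth1 followed at 12811 and 11182 CPM, against 1977 and 3568 CPM in the rest. The lysozyme gene Lyz2 had 9549 CPM in macrophages and 257 CPM in the rest. Apoe was detected in 98.1% of macrophages and Lyz2 in 99.4%.

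Receptors and adaptors that bind antibody or sense phagocytic targets were mostly high. Of 17 Fc receptor and adaptor genes tested, 16 were at least 4-fold higher in macrophages and none was lower, with a median log2 ratio of 4.61. The adaptors Fcer1g and Tyrobp reached 2741 and 2358 CPM, against 77.0 and 111 CPM in the rest, and Fcgr1, the high-affinity IgG receptor, had 222 CPM against 0.329 CPM. Trem2, a lipid-sensing receptor, had 544 CPM in macrophages and 5.80 CPM in the rest. Of 17 scavenger and efferocytosis receptors, 10 were higher and 1 lower. Axl, a receptor for phosphatidylserine bridged by GAS6, had 468 CPM in macrophages against 33.3 CPM in the rest, and its relative Mertk had 127 against 14.2 CPM. Their ligand Gas6 was itself at 394 CPM in macrophages against 124 CPM in the rest. Stab1, a scavenger receptor, had 581 CPM in macrophages against 6.52 CPM.

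Lysosomal genes were higher as a group but by less. Of 20 proteases and hydrolases, 12 were at least 4-fold higher and none was lower, with a median log2 ratio of 2.19. Cathepsin genes Ctsb, Ctsd and Ctss had 3502, 1875 and 1428 CPM in macrophages, against 741, 234 and 15.3 CPM in the rest. Lgmn, the asparagine endopeptidase legumain, had 1592 CPM in macrophages against 92.8 CPM in the rest.

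Genes for iron and haem handling followed a similar pattern, with 8 of 12 higher, none lower and a median log2 ratio of 2.64. Slc40a1, which encodes the iron exporter ferroportin, had 753 CPM in macrophages against 18.9 CPM in the rest. Hmox1, which encodes the haem-degrading haem oxygenase, had 1039 CPM against 32.3 CPM, and Slc11a1, a phagosomal metal transporter, 170 CPM against 1.11 CPM. Slc40a1 and Hmox1 were uneven between cells, with per-cell medians of 249.8 and 139 CPM but highest cells of 7297 and 13522 CPM.

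Chemokine genes were high in macrophages. Of 15 tested, 12 were at least 4-fold higher in macrophages and 1 was lower, with a median log2 ratio of 6.23. Ccl7 and Ccl2, attractants of monocytes, reached 2097 and 1987 CPM in macrophages, against 11.6 and 25.5 CPM in the rest. Ccl4 and Ccl3, inflammatory chemokines, had 1593 and 864 CPM against 14.6 and 4.90 CPM. Ccl8 and Ccl12 had 922 and 688 CPM against 2.64 and 0.636 CPM, and Ccl24, an eosinophil attractant, 220.4 CPM against 0.164 CPM. These genes were not in every cell: a UMI was found in 69.5% of macrophages for Ccl2, 52.2% for Ccl8 and 31.1% for Ccl24. In stromal cells, at the depths given above, the shares were 7.66%, 1.68% and 0.255%. The 1 lower member was Cxcl12, with 39.2 CPM in macrophages, 296 CPM in the rest and 164 CPM in stromal cells.

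Cytokine and sensing genes were also raised. Of 13 cytokine and inflammasome genes, 10 were higher and 1 lower, and of 12 pattern recognition receptors 10 were higher. Il1b had 508 CPM in macrophages against 17.9 CPM in the rest and 494 CPM in neutrophils, and 37.7% of macrophages had a UMI. Tnf had 59.9 CPM in macrophages against 2.09 CPM in the rest. The anti-inflammatory cytokine Il10 had 43.6 CPM in macrophages against 0.132 CPM, with a UMI in 15.4% of cells. Tlr7, a sensor of single-stranded RNA, had 82.0 CPM in macrophages against 0.296 CPM, and Tlr2 had 117 against 9.56 CPM. Of 12 interferon response genes 8 were higher, with Ifi204 at 133 CPM in macrophages against 7.19 CPM in the rest.

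Of the 8 MHC class II presentation genes tested all were at least 4-fold higher, with a median log2 ratio of 4.92. The invariant chain gene Cd74 had 5001 CPM in macrophages and 149 CPM in the rest, and H2-Aa and H2-Ab1 had 1748 and 1416 CPM against 52.8 and 51.0 CPM. Per cell, Cd74 ran from 0 CPM at the lowest through quartiles of 114 and 4862 CPM to 55720.3 CPM at the highest. Here macrophages differed strongly among themselves, as described further on.

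Transcription factors gave smaller ratios, with 9 of 20 higher and none lower. Maf, a regulator of macrophage identity, had 908 CPM in macrophages but also 187 CPM in the rest. Irf8 had 242 CPM in macrophages and 12.3 CPM in the rest. Spic, which in mice is needed for iron-recycling macrophages of the spleen, had 178 CPM in macrophages and 0.197 CPM in the rest. It was found in 158 macrophages (49.7%) and in 0.0764% of stromal cells.

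**Figure D2:**
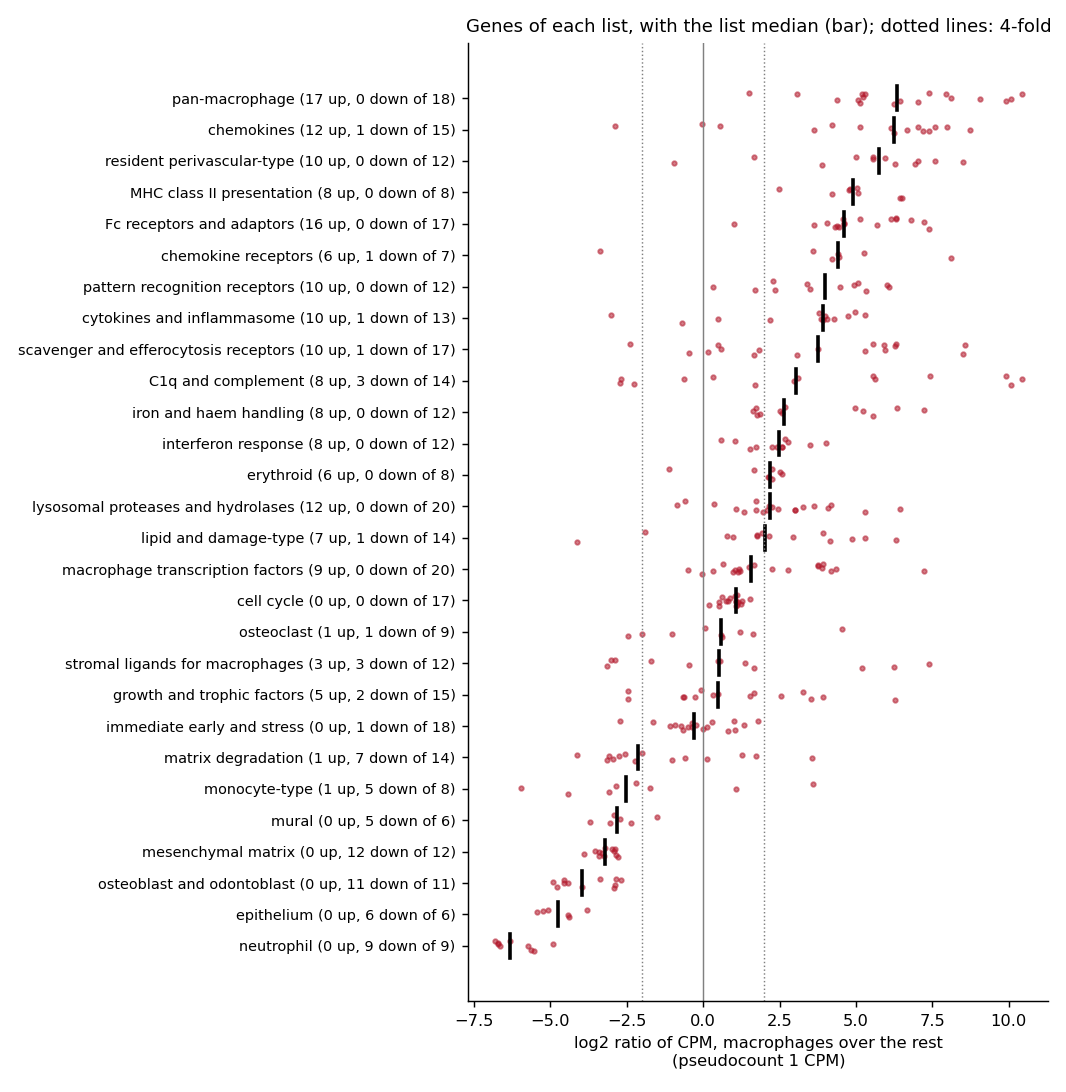
Each row is a gene list, each point 1 gene of it that passed the level filter, and the horizontal axis is the log2 ratio of CPM in macrophages over the rest of the library with a pseudocount of 1 CPM; the bar is the list's median and the counts beside the names are genes past 4-fold. Pan-macrophage genes have a median of 6.35 and neutrophil genes one of -6.30, while the cell cycle, osteoclast and immediate early lists lie near the middle. The pan-macrophage list holds C1qa, C1qb and Csf1r, which the rule fixed as high.

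Genes that mark other cells were mostly low. Of the neutrophil list all 9 genes tested were at least 4-fold lower than in the rest, and S100a8 had 20.1 CPM in macrophages, 2234 CPM in the rest and 85607 CPM in neutrophils. No macrophage had 50 UMIs of S100a8 and S100a9, which allows a share of such cells of up to 0.943% by a limit of 3 counts. No macrophage held a UMI of Cd3e or Cd79a, genes of T and B cells, and the same limit then holds for cells with a UMI, not for cells expressing the gene. These genes do not stand for the whole lymphocyte list. Its 1 gene past the level filter was at least 4-fold higher in macrophages, at a log2 ratio of 3.42. Of 2 dendritic cell genes tested, 1 was at least 4-fold higher and none was lower. All 12 mesenchymal matrix genes and all 11 osteoblast and odontoblast genes were lower, with median log2 ratios of -3.22 and -3.97. Col1a1 nonetheless had 2866 CPM in macrophages, against 30175.5 CPM in the rest and 36835 CPM in stromal cells, and a UMI in 98.7% of macrophages. Its per-cell median was 339 CPM and its highest cell 54407 CPM. The erythroid list went the other way, with 6 of 8 genes higher, and Hbb-bs had 10715 CPM in macrophages and 2250 CPM in the rest. Few cells carried this: the list's summed level was 19158 CPM over all macrophages but its per-cell median was 70.9 CPM. Without the 21 macrophages with at least 50 haemoglobin UMIs, the list's median log2 ratio turned to -4.56 and that of Hbb-bs to -4.85, with no such cells removed from the rest.

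Against the 293 cells with Csf1r but under the C1q threshold (median 21822 UMIs), pan-macrophage and chemokine genes were higher, and osteoclast, monocyte-type and neutrophil genes lower, in macrophages. Of 6826 genes tested, 449 (6.58%) were at least 4-fold higher and 531 (7.78%) at least 4-fold lower. The pan-macrophage list had 15 of 18 genes higher and none lower, and chemokines had 10 of 15 higher. The pan-macrophage list holds C1qa and C1qb, so the choice of both groups by C1q fixed its count in part. Osteoclast genes had none of 11 higher and 7 lower, with a median log2 ratio of -2.86. Acp5, the tartrate-resistant phosphatase, had 218 CPM in macrophages against 2273 CPM in those cells, and Ctsk, the collagen-cleaving cathepsin K, 170 CPM against 2539 CPM. Monocyte-type genes had none of 10 higher and 7 lower, with Ly6c2 at 8.95 CPM in macrophages against 261 CPM. All 10 neutrophil genes tested were lower as well, with a summed level of 83.9 CPM in macrophages against 7349.8 CPM in those cells, and neutrophils themselves had 8885 CPM of the monocyte-type list. These Csf1r cells also had 29103 CPM of Col1a1, and their median Csf1r count was 1 UMI. The part of neutrophils and of stromal RNA in this comparison was not tested.

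Against the 77 neutrophils (median 17139 UMIs), 776 of 6463 genes (12.0%) were at least 4-fold higher and 304 (4.70%) at least 4-fold lower. All 8 MHC class II genes tested were higher, with Cd74 at 5001 CPM in macrophages against 15.5 CPM in neutrophils. All 13 neutrophil genes were lower, which the choice of these cells by S100a8, S100a9 and Csf3r fixed in part. The shared myeloid genes Spi1 and Cd14 were close, at 368 and 645 CPM in macrophages against 360 and 410 CPM in neutrophils, and Il1b likewise.

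Of 12 ligands listed for signals from stroma to macrophages, 3 were at least 4-fold higher and 3 lower in macrophages than in the rest. The summed level of the list was 6583.5 CPM in macrophages against 1064 CPM in stromal cells, with Ccl2, Ccl7 and Vcam1, described elsewhere, as its higher members. Csf1, the main growth factor for macrophages, had 4.48 CPM in macrophages against 45.5 CPM in stromal cells, and Il34, the alternative ligand of CSF1R, 0.373 CPM against 1.88 CPM. Tnfsf11, which encodes the osteoclast inducer RANKL, had 1.68 CPM in macrophages against 25.6 CPM in stromal cells. Its receptor gene Tnfrsf11a had 87.6 CPM in macrophages and 0.528 CPM in stromal cells, with a UMI in 64.8% and 0.484% of them. Tnfrsf11b, the decoy receptor osteoprotegerin, had 5.22 CPM in macrophages against 64.9 CPM in stromal cells. The CXCL12 receptor gene Cxcr4 had 247 CPM in macrophages against 2.38 CPM in stromal cells and 73.6 CPM in neutrophils. The scavenging receptor gene Ackr3 showed the reverse, 1.86 CPM in macrophages against 30.4 CPM in stromal cells. Cx3cl1, the ligand of CX3CR1, had 1 UMI in all macrophages and 3.49 CPM in stromal cells. Igf1, a growth factor made by both, had 326 CPM in macrophages and 391.5 CPM in stromal cells.

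The reporters were mostly absent from macrophages. At least 5 UMIs of the GFP transcript were found in 14 macrophages (4.40%, 2.43 to 7.28) against 57.7% of stromal cells and 10.4% of neutrophils. At least 5 UMIs of the tdTomato transcript were found in 12 macrophages (3.77%, 1.96 to 6.50) against 30.2% of stromal cells and 49.4% of neutrophils. With 1 UMI as the limit the shares were 29.9% for GFP and 35.2% for tdTomato in macrophages, against 72.1% and 56.4% in stromal cells. All 14 macrophages with at least 5 GFP UMIs were among the 23 with at least 50 UMIs of Col1a1 and Col1a2. Of the 12 with at least 5 tdTomato UMIs, 7 were among these 23. The 295 macrophages outside the 23 had 20.6 CPM of GFP, against 599 CPM in the 23, and 77 of the 295 had a GFP UMI. How the remaining macrophages passed the gate was not tested.

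Some macrophages carried many UMIs of other cell types. The 23 macrophages (7.23%) with at least 50 collagen UMIs had 54 to 3018 of them, with 18498 CPM of Col1a1 against 354 CPM in the other 295. They also had 4298 CPM of Ibsp, a bone matrix gene, against 30.3 CPM, and a median of 29206 UMIs per cell against 14187. Their C1qa level was 3063 CPM against 5927 CPM in the others. A doublet score from simulated cell pairs placed 21 of these 23 among the cells with the highest doublet scores. A collagen-rich macrophage and a pair of cells in 1 droplet cannot be told apart here. Of 18 macrophages with at least 10 Ctsk UMIs, 15 were among the 23, and the 3 that were not had 5445 CPM of Ctsk, 3376 CPM of Acp5 and 543 CPM of Atp6v0d2, an osteoclast proton pump subunit. In the other 292 macrophages without many collagen UMIs, Ctsk had 13.3 CPM and Acp5 169 CPM.

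Haemoglobin UMIs were concentrated in few cells. Of the macrophages, 21 (6.60%) had at least 50 haemoglobin UMIs, with 55 at the lowest, 2545 at the median and 25005 at the highest, against a median of 1 and at most 48 in the other 297. Their depth was higher, with a median of 22912 UMIs against 14468. Vcam1, an adhesion molecule that binds VLA-4 on blood cells, had a median of 90 UMIs in the 21 cells and 2 UMIs in the 297. At least 5 Vcam1 UMIs were present in 20 of the 21. Of the 47 macrophages with at least 50 Vcam1 UMIs, 18 had at least 50 haemoglobin UMIs, against 1 of 179 with under 5. The haemoglobin-rich cells had 449 CPM of Spic against 143 CPM in the others, 1573 CPM of Slc40a1 against 649 CPM, 2323 CPM of Hmox1 against 876 CPM and 1284 CPM of Axl against 364 CPM. Genes of the rule were lower in them, with 4441 CPM of C1qa against 5669 CPM in the others and 3420 CPM of C1qb against 4507 CPM. Csf1r fell further, to 511 CPM against 1178 CPM. Haemoglobin itself took part of their totals, and its part in these differences was not tested.

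Erythroid genes other than haemoglobin were present in 14 of the 21. These 14 had at least 3 UMIs together of Alas2 and the other erythroid genes, all 14 had at least 5 Vcam1 UMIs and all had a UMI of Spic. The haemoglobin-rich cells had 479 CPM of Alas2, the erythroid haem synthesis enzyme, against 0.420 CPM in the others. Mki67, a proliferation marker, had 398 CPM in them against 99.4 CPM. At least 2 UMIs of Mki67 and Top2a were found in 10 of the 14. Of the 21, 2 were among the highest doublet scores. That score simulates random pairs of the library's cells. As 56 of the 5339 cells outside the macrophages had at least 50 haemoglobin UMIs, it bears little on pairs with erythroid cells. An erythroid cell attached to a macrophage, one engulfed by it and one captured with it by chance cannot be told apart in these counts.

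**Figure D3:**
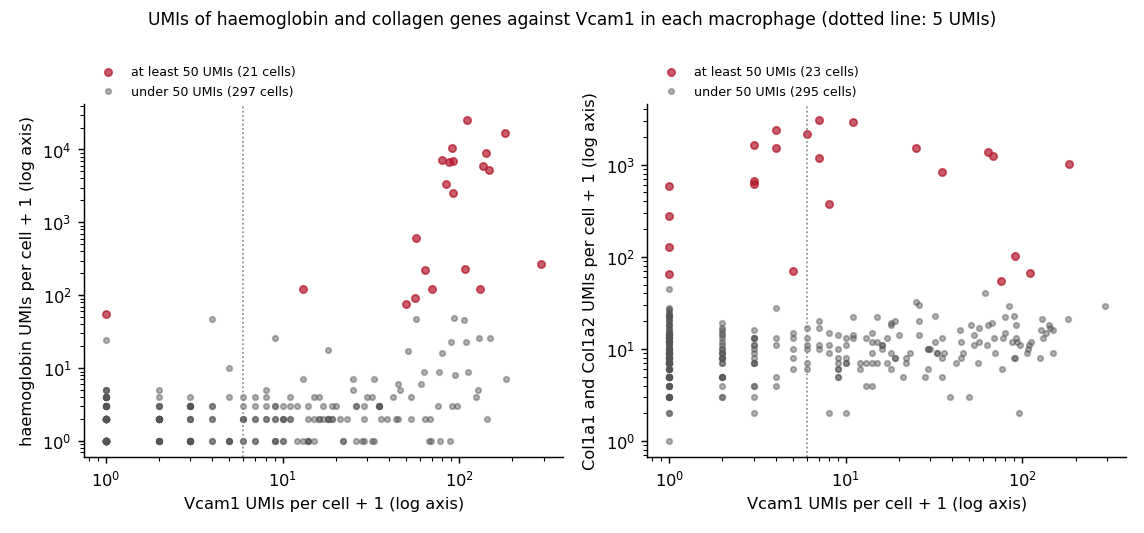
Each point is 1 of the 318 macrophages, with UMIs of Vcam1 on the horizontal axis and UMIs of the haemoglobin genes (left) or of Col1a1 and Col1a2 (right) on the vertical axis, all plus 1 on log axes; red points have at least 50 UMIs of those genes. Of the 21 haemoglobin-rich cells 20 lie right of the dotted line at 5 Vcam1 UMIs, whereas the 23 collagen-rich cells lie on both sides, 13 of them right of it.

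To rank genes by variation among macrophages, each cell was thinned to 2000 UMIs, which left out 4 of 318. The Fano factor, the variance over the mean of these counts, had a median of 1.06 over 2550 genes. Among the highest were Hbb-bs at 276, Hba-a1 at 125, Col1a1 at 46.4, Cd74 at 38.3, Apoe at 30.2 and Lyz2 at 23.5. Without the haemoglobin-rich and collagen-rich cells, 276 macrophages were left, of which 272 could be thinned. In those Hbb-bs and Col1a1 fell to Fano factors of 2.22 and 2.03, while Cd74 had 39.6, Apoe 27.9, Lyz2 22.7, Ccl8 19.3, Ccl4 14.8, Ccl7 14.7, H2-Aa 14.5 and Ccl2 14.3. Malat1, of none of these classes, had 23.0. High Fano factors of antigen presentation, lipid transport, lysozyme and chemokine genes thus remained when cells with RNA of other lineages were left out. The Fano factor also rose with the number of counts. Over all macrophages Apoe had 70.3 when cells were thinned to 5000 UMIs, against 30.2 at 2000, so abundant genes such as Apoe and Lyz2 rank high in part by level.

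MHC class II was split by taking the 80 macrophages with the highest and the 80 with the lowest summed CPM of H2-Aa, H2-Ab1, H2-Eb1 and Cd74, at median depths of 15475.5 and 14249.5 UMIs. At least 2-fold higher in the high cells were 128 of 6331 genes (2.02%) and at least 2-fold lower 264 (4.17%). Ccr2, the receptor for CCL2 that marks cells derived from monocytes, had 278 CPM in the high cells and 3.09 CPM in the low cells. H2-DMb1 and H2-DMa, which load peptide and were not used for the split, had 429 and 425 CPM in the high cells against 38.7 and 69.6 CPM in the low cells. Cd52 had 598 CPM against 84.3 CPM. The C1qa level hardly differed, 5274 CPM in the high cells and 5425 CPM in the low cells. Folr2, a folate receptor of resident macrophages, had 77.7 CPM in the high cells and 374 CPM in the low cells, and F13a1 113 against 384 CPM. Of 12 resident perivascular-type genes 6 were at least 2-fold lower and none higher. Ctsk was lower as well, 70.2 CPM in the high cells against 498 CPM in the low cells, and 21.5 against 529 CPM without the cells rich in collagen or haemoglobin UMIs. Few cells carried this: of the 70 low cells then left, 2 held 508 of the 525 Ctsk UMIs. Without cells with at least 10 Ctsk UMIs, a choice made after the values were seen, Ctsk had 9.48 CPM in the 67 high cells and 18.6 CPM in the 68 low cells. Postn, a ligament matrix gene, had 177 CPM in the high cells against 1298 CPM in the low cells over all macrophages. Without the cells rich in collagen or haemoglobin UMIs it had 58.9 against 66.5 CPM.

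The promoters of H2-Aa, used for the split, and H2-DMb1, not used for it, are shown because these genes were high in the same macrophages. They lie at chr17:34287774-34288073 on the minus strand and chr17:34152941-34153240 on the plus strand of GRCm38.p6, from RefSeq. Capitals mark TGATTGG, the form of the Y box of MHC class II promoters that was searched on both strands together with its reverse complement CCAATCA.
H2-Aa: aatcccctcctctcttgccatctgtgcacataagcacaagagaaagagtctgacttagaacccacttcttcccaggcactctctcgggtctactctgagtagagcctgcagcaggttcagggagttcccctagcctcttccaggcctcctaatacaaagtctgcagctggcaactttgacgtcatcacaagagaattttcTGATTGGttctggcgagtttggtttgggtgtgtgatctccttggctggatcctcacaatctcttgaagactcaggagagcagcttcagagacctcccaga
H2-DMb1: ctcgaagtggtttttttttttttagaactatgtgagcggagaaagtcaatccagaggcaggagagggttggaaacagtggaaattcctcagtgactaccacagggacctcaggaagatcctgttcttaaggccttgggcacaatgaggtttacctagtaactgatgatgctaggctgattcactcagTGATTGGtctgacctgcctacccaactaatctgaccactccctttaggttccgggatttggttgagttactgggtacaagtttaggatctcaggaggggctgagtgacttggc
Each window held 1 match, 50 bases before the start in H2-Aa and 63 in H2-DMb1. The motif was found in 7.82% of the 32851 promoters.

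Ccr2 marked 52 macrophages with at least 1 UMI (16.4%, 12.5 to 20.9, against 0.306% of stromal cells), set against 266 with none, at median depths of 16113 and 14838 UMIs. At least 2-fold higher in the Ccr2 cells were 224 of 6319 genes (3.54%) and at least 2-fold lower 552 (8.74%). Of 8 MHC class II genes 6 were higher and none lower, with a median log2 ratio of 2.32. H2-Aa had 5475 CPM in the Ccr2 cells against 926 CPM in cells with none, and H2-Eb1 had 2395 CPM against 299.9 CPM. Among the 80 MHC class II high cells were 33 of the 52. Napsa, an aspartic protease, had 94.97 CPM in the Ccr2 cells against 3.41 CPM, and Plac8 171 against 16.2 CPM. Ly6c2, the classical monocyte antigen, had 44.4 CPM against 1.14 CPM but was found in 7.69% of the Ccr2 cells. Mmp12, a macrophage elastase, had 72.3 CPM in the Ccr2 cells against 1.37 CPM but was found in 7.69% of them.

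Genes of resident and iron-handling macrophages were lower in the Ccr2 cells, and so were genes of other cell types. Of 12 resident perivascular-type genes 10 were at least 2-fold lower and none higher, and of 12 iron and haem genes 9 were lower and none higher. Slc40a1 had 21.7 CPM in the Ccr2 cells against 914 CPM in cells with none, Vcam1 72.3 against 1425 CPM and Cd163, the scavenger receptor for haemoglobin, 13.4 against 111 CPM. Cd209f had 34.1 CPM against 559 CPM and Cd209g 2.06 against 231 CPM. The interferon list had 8 of 12 genes lower. C1qa itself was at 3821 CPM in the Ccr2 cells against 5907 CPM. The lowest ratios were those of haemoglobin genes, with Hbb-bs at 94.97 CPM in the Ccr2 cells against 13055.8 CPM. All 7 erythroid genes tested, 9 of 11 mesenchymal matrix genes and 6 of 9 osteoclast genes were at least 2-fold lower. Without the collagen-rich and haemoglobin-rich cells, Hbb-bs had 61.7 against 87.1 CPM, and none of 9 matrix genes but 5 of 8 osteoclast genes were lower. In those cells the medians were 2.32 for MHC class II, -1.87 for the perivascular-type list and -1.46 for iron and haem.

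Cell cycle genes went with Ccr2. Of 17 genes 13 were at least 2-fold higher in the Ccr2 cells and none lower, and their summed level was 3539 CPM in the Ccr2 cells against 1446 CPM in cells with none. Top2a had 287 CPM in the Ccr2 cells against 101 CPM. At least 2 UMIs of Mki67 and Top2a were found in 48 macrophages (15.1%, 11.3 to 19.5) against 4.71% of stromal cells and 40.3% of neutrophils. Of these 48, 16 were among the 52 Ccr2 cells and 32 among the other 266. The cycling cells were deeper, with a median of 26810 UMIs against 13857.5 in the other macrophages, and 10 of them held at least 3 erythroid UMIs. The part of depth in this count was not tested.

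Lyve1, a hyaluronan receptor known from macrophages beside vessels, had a UMI in 36 macrophages (11.3%, 8.06 to 15.3) and in 0.204% of stromal cells, and these were set against 282 macrophages with none. Median depths were 13654.5 and 15114.5 UMIs. At least 2-fold higher in the Lyve1 cells were 305 of 6328 genes (4.82%) and at least 2-fold lower 333 (5.26%). Of 11 resident perivascular-type genes tested, 9 were higher and none lower, with a median log2 ratio of 1.26. F13a1, a coagulation factor subunit of resident macrophages, had 1001 CPM in the Lyve1 cells against 173 CPM in cells with none and was found in every Lyve1 cell. Mrc1 had 2569 against 1211 CPM, Folr2 513 against 182 CPM and Cd163 224 against 78.3 CPM. The gelatinase gene Mmp9 had 251 CPM in the Lyve1 cells against 17.1 CPM, Il10 205 against 24.8 CPM and Bmp2, a bone morphogenetic protein, 367 against 60.8 CPM.

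Chemokines were high in the same Lyve1 macrophages. Of 15 genes 9 were at least 2-fold higher and 1 lower, with a median log2 ratio of 1.32, and the summed level was 29581 CPM in the Lyve1 cells against 10543 CPM in cells with none. Ccl2 had 5449 CPM in the Lyve1 cells against 1583 CPM, Cxcl2 2578 against 605 CPM and Ccl24 1120.5 against 115 CPM. Ccl24 had a UMI in 29 of the 36 Lyve1 cells and in 70 of the 282 others. Ccl8 was not among the higher genes, at 786 CPM against 938 CPM. Of 17 immediate early and stress genes, which dissociation can raise, 5 were at least 2-fold higher in the Lyve1 cells and none lower. The part of dissociation in the chemokine levels was not tested.

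Genes low in Lyve1 macrophages included those of antigen presentation and division, and those of erythroid cells. Of 8 MHC class II genes 6 were at least 2-fold lower and none higher, with H2-Aa at 442 CPM in the Lyve1 cells against 1900.4 CPM. Of 17 cell cycle genes 15 were lower, with a summed level of 652 CPM in the Lyve1 cells against 1961 CPM. The lowest ratios were those of haemoglobin genes, and all 7 erythroid genes tested were lower. Hbb-bs had 49.9 CPM in the Lyve1 cells against 11961.5 CPM, and 52.7 against 85.6 CPM without the collagen-rich and haemoglobin-rich cells. Mesenchymal matrix genes were at least 2-fold higher in 7 of 11 cases over all cells, and in 1 of 10 without those cells. No Lyve1 cell held a Ccr2 UMI, which allows up to 8.33% of such cells to hold a UMI by the limit of 3 counts and does not limit how many express the gene, against 52 of the 282 others. Vcam1 had 338 CPM in the Lyve1 cells against 1279.5 CPM and Axl 89.1 against 512 CPM. With the collagen-rich and haemoglobin-rich cells left out, 33 Lyve1 cells against 243 gave medians of 1.16 for the perivascular-type list, 1.33 for chemokines and -1.59 for MHC class II.

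The macrophages were also split by Vcam1, a choice made after the values were seen. At least 5 UMIs were found in 139 macrophages (43.7%, against 2.34% of stromal cells) and none in 121, at median depths of 16610 and 13400 UMIs. At least 2-fold higher in the Vcam1 cells were 542 of 6362 genes (8.52%) and at least 2-fold lower 243 (3.82%). The highest ratios were those of haemoglobin genes, with Hbb-bs at 21592 CPM in the Vcam1 cells and 51.5 CPM in cells with none, and they came down to 139 and 34.0 CPM when haemoglobin-rich and collagen-rich cells were left out. In the same way 10 of 11 mesenchymal matrix genes were higher over all cells, while none of 9 passed 2-fold and the median was -0.18 without those cells.

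Iron genes were higher with and without those cells. Of 12 iron and haem genes 8 were at least 2-fold higher in the Vcam1 cells and none lower, with a median log2 ratio of 1.62, against 9 of 12 and 1.29 in the 108 and 116 cells left. Slc40a1 had 1353 CPM in the Vcam1 cells and 85.1 CPM in cells with none, 15.9-fold (13.5 to 18.8, exact conditional binomial interval, counting error only). Spic had 323 against 24.4 CPM, 13.2-fold (9.81 to 18.3), and Hmox1 1864 against 191 CPM. Ftl1 and Fth1, found in every macrophage, differed less, with 15407 and 13595 CPM in the Vcam1 cells against 10475 and 9074 CPM. Itgad, the integrin alpha D subunit known from red-pulp macrophages of the spleen, had 79.5 CPM in the Vcam1 cells and no UMI in cells with none. Timd4, a phosphatidylserine receptor, had 141 against 15.7 CPM, Axl 859 against 81.3 CPM and Igf1 448 against 170.2 CPM.

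Cell cycle and antigen presentation genes were lower in the Vcam1 macrophages. Of 17 cell cycle genes 8 were at least 2-fold lower and none higher, and 16 were lower without the collagen-rich and haemoglobin-rich cells, with a median log2 ratio of -1.56. Their summed level was 1359.5 CPM in the Vcam1 cells against 2482 CPM in cells with none. The share of cells with at least 2 UMIs of Mki67 and Top2a did not differ. It was 21 of the 139 Vcam1 cells (15.1%) and 27 of the 179 macrophages with under 5 Vcam1 UMIs (15.1%). The monocyte-type list was mixed, with 3 of 8 genes lower and 1 higher. Among single genes with the lowest ratios, S100a4 had 34.3 CPM in the Vcam1 cells and 1310.4 CPM in cells with none, S100a10 119 against 1146 CPM and Lyz1 2.64 against 95.9 CPM. Ccr2 had 6.78 against 249.8 CPM, and 2 of the 52 Ccr2 cells had at least 5 Vcam1 UMIs. Of 8 MHC class II genes 5 were lower and none higher. The interferon list had 6 of 13 genes higher and 1 lower with a median log2 ratio of 0.85, although its summed level was 1810.4 CPM in the Vcam1 cells against 1970 CPM, since abundant members did not follow the median. Adgre1 and Csf1r, general macrophage genes, were close at 558 and 1060.0 CPM in the Vcam1 cells against 477 and 1007 CPM.

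**Figure D4:**
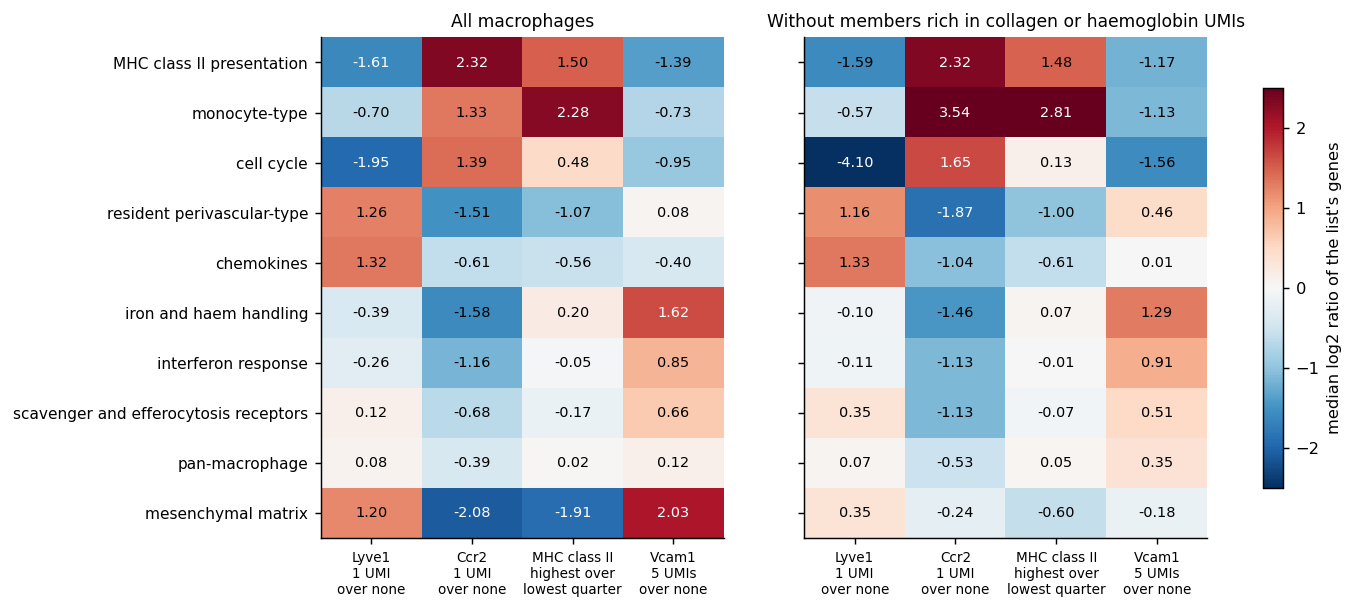
Median log2 ratio of the genes of 10 lists between macrophages with high and low levels of 4 splitting features, over all macrophages (left) and without cells rich in collagen or haemoglobin UMIs (right); red is higher and blue lower in the high cells, and colours saturate at 2.5. Lyve1 and Ccr2 cells show opposite signs for MHC class II, cell cycle, perivascular-type and chemokine genes, while the mesenchymal matrix row lies between -0.60 and 0.35 on the right.

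Across cells, genes followed a few shared axes. Spearman's rho of CPM over the 276 macrophages without many collagen or haemoglobin UMIs is given as a description, since cells share a library and depth. H2-Aa and Cd74 had a rho of 0.89. Ccl2 and Ccl7, 8.26 kb apart on chromosome 11, had 0.83, and Ccl3 and Ccl4, 13.23 kb apart on the same chromosome, had 0.68. Vcam1 went with Slc40a1 at 0.73, with Axl at 0.62 and with Spic at 0.61, and against Ccr2 at -0.42. Pf4, a chemokine best known from platelets but present in 94.3% of macrophages, went with F13a1 at 0.64 and Folr2 at 0.54, and against Axl at -0.42. Lyve1 and Mmp9 had 0.50. Over all 318 macrophages these values were between -0.49 and 0.89.

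**Figure D5:**
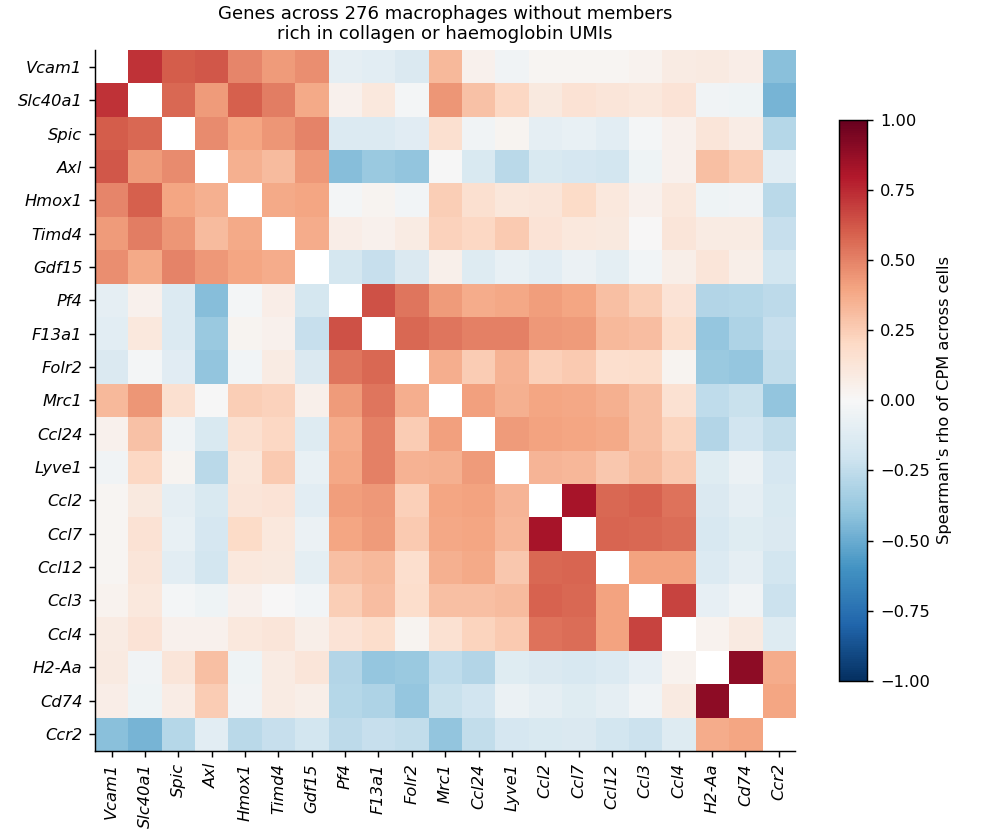
Spearman's rho between 21 genes across the 276 macrophages left without cells rich in collagen or haemoglobin UMIs, each square a pair of genes on the colour scale from -1 to 1. The squares show a block of Vcam1, Slc40a1, Spic and Axl, a block of Pf4, F13a1 and Folr2, a chemokine block around Ccl2 and Ccl7, and the pair H2-Aa and Cd74.

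The splits are ranges of level among cells that all carried C1q and Csf1r by the rule, and they overlapped to unequal degrees. No Lyve1 cell held a Ccr2 UMI, against 52 of the 282 others. Of the 52 Ccr2 macrophages 2 (3.85%) had at least 5 Vcam1 UMIs, against 137 of the 266 others (51.5%). Timd4 had a UMI in 69.4% of Lyve1 cells and 64.7% of Vcam1 cells, with no share of the other macrophages set beside these. Of the 36 Lyve1 macrophages 11 (30.6%) also had at least 5 Vcam1 UMIs, against 128 of the 282 others (45.4%). Among the 80 with the highest MHC class II were 6 of the 36 (16.7%), against 74 of the 282 others (26.2%).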

How the data were processed

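The 3 libraries were made with 10x Genomics Chromium 3' v3 chemistry, per the labels, and the deposited matrices hold UMI counts per gene and barcode. Per the submitters' processing notes, Cell Ranger, Seurat and mm10 were used. The matrix headers give Cell Ranger 3.1.0 for day 25 and 6.0.0 for day 6. No other processing step is given in the sources used here.

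From the deposited counts, barcodes under 500 genes or over 15% mitochondrial UMIs were removed. Counts were summed over cells and divided by the group's UMIs to give CPM. Ratios used a pseudocount of 1 CPM on the log2 scale and a filter of 20 CPM, with 4-fold as the limit between groups and 2-fold within macrophages. With 1 library per group there is no replicate spread and no p-value, and intervals (95%) cover counting error only. Doublets were not removed in the main values, and a simulation-based score was tried as an alternative. Neutrophils had at least 50 UMIs of S100a8 and S100a9 with Csf3r. The steps were tested on simulated counts.

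The members and the 34 gene lists were chosen with earlier results of these data known. Named genes were the markers, 2 to 4 genes a list by level or ratio, the 25 highest ratios, the 15 highest levels and Fano factors, the 8 highest and lowest ratios of each split, Cxcl12 and the reporters, and some further list members were named after their values were seen. Genes not in the feature list of the day 25 matrix were not analysed here. Gene positions are from GENCODE vM21. Python 3.11.15, numpy 2.4.6, scipy 1.17.1, pandas 2.3.3 and scikit-learn 1.9.0 were used.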

Additional observations from a re-analysis of the deposited data

How the results depend on the processing

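No paired analysis was possible because each group is 1 library. Over 17 alternatives, 176 results gave 1710 values. Of these 1201 moved by no more than the counting interval (1.5-fold for counts of genes) and 501 moved further. A further 8 had a main ratio of at least 2-fold either way and changed sign. Sign changes of smaller ratios were not counted apart. The number and share of macrophages stayed within these limits under each alternative tried for them. With a pseudocount of 10 CPM, 433 genes were at least 4-fold higher and 370 lower in macrophages, against 681 and 831. Without a filter on level 1436 were lower, and with one of 50 CPM 453. With at least 3 Lyve1 UMIs, a setting chosen after seeing the data, 477 genes were at least 2-fold higher and 530 lower, against 305 and 333. The median log2 ratio of mesenchymal matrix genes in the Vcam1 split changed sign, to -0.045 without the highest doublet scores and -0.29 without collagen-rich or neutrophil-rich macrophages. Without the 21 haemoglobin-rich macrophages, an alternative also chosen after seeing the data, Hbb-bs was at -4.85 and the erythroid median at -4.56 in log2 over the rest, with no such cells removed from the rest. Without the 18 macrophages with at least 10 Ctsk UMIs, of which 15 were collagen-rich, also chosen after seeing the data, the matrix median was -0.63 in the Lyve1 split, 0.45 in the Ccr2 split, 0.34 in the MHC class II split and -0.52 in the Vcam1 split, each with the sign changed, and the cause was not tested. Removing the 256 highest doublet scores took out 41 macrophages. Genes with few UMIs, such as Cx3cl1 and Il34, cannot be ranked at this depth.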
